A study of Mus musculus with 6 samples.

Results

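The channel genes described here are those of the voltage-gated sodium channels, the voltage-gated calcium channels with their auxiliary subunits, the sodium leak channel, the HCN pacemaker channels, the acid-sensing ion channels (ASICs), the TRPC, TRPM and TRPV cation channels, and the ryanodine and IP3 receptors that release calcium from stores. They were chosen by gene symbol alone, and 64 of the 13886 genes listed in the table of expression values had such a symbol. The reference annotation holds 78 genes with matching symbols. The other 14 are not in the table, which lists only genes above the authors' minimum level, so their levels are not known: *Asic3*, *Asic5*, *Cacna1f*, *Cacng1*, *Scn4a*, *Trpa1*, *Trpc2*, *Trpm1*, *Trpm5*, *Trpm6*, *Trpm8*, *Trpv1*, *Trpv3* and *Trpv5*.

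The values come from RNA-seq of ribosome-bound transcripts that were immunoprecipitated (IP) from micropunches of the medial amygdala (MeA) of female Kiss1Cre+/Rpl22HA+/+ mice. In these RiboTag mice, Cre made by *Kiss1* cells switches on an HA-tagged ribosomal protein, so a cell that once made enough Cre keeps the tag. At 8 weeks of age all females lost their ovaries (ovariectomized, OVX), and they were given estradiol (E2) for 4 days to drive Cre, and left without it for 7 days. The E2 group then received an E2 capsule for 5 days and the OVX group received none. Each group had 3 libraries, and each library was 1 pool of 4 mice, so that each group held 12 mice. The study sequenced IP samples of these mice alone, and neither unprecipitated tissue nor IP samples of Cre-negative mice. Neither enrichment over the rest of the MeA nor the background of the precipitation can thus be given for any channel. The scaled library sizes ran from 28.1M to 34.2M reads. The labelled cell type was checked against *Kiss1*, which is listed under 2 overlapping gene models. Its higher model was at log2 CPM (counts scaled to the size of the library, on a log2 scale) of 2.29, 1.82 and 1.13 in OVX and 3.72, 3.80 and 3.45 in E2 libraries. By this model the defining gene was detected in all 6 libraries but at a low level. The lower model was at -5.82, -0.65 and 0.10 in OVX and 2.97, 3.18 and 2.65 in E2 libraries (adjusted p = 0.0943 by limma). Its value in OVX replicate 1 was the lowest of that library, so there it was not detected. Of the other markers of these cells, *Cck* (8.88 to 9.34) and *Cartpt* (5.84 to 7.04) were present throughout. The estrogen receptor gene *Esr1* went against *Kiss1*, lower with E2 by a log2 difference of -0.70 (adjusted p = 0.0189 by limma), while the higher *Kiss1* model was higher with E2 by 1.91 (adjusted p = 0.00475) and *Cck*, not past the threshold, differed by 0.24 (adjusted p = 0.295). Markers of astrocytes, oligodendrocytes and excitatory neurons of other forebrain areas were also present in all 6 libraries.

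Voltage-gated sodium channels open on depolarization and carry the upstroke of the action potential, and their beta subunits set gating and placement in the membrane. Voltage-gated calcium channels couple depolarization to transmitter release, excitability and gene expression, with pore-forming alpha1 subunits helped by alpha2delta and beta subunits. HCN channels carry the hyperpolarization-activated current that paces firing, the sodium leak channel sets resting potential, and ASICs are sodium-permeable channels opened by extracellular protons. TRP channels conduct calcium and sodium downstream of receptors, temperature or stretch. Ryanodine and IP3 receptors release calcium from the endoplasmic reticulum.

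*Asic2* was the 1 channel gene that differed between the treatments, and it has a pair of first exons, so the sequences that set its forms apart are shown first. GENCODE lists a downstream and an upstream transcript, each with 10 exons, whose starts lie 815 kb apart on the minus strand of chromosome 11 (GRCm38). They share 1872 exonic bases, while 1564 bases belong only to the downstream and 828 only to the upstream one. The lines below give 75 coding bases of each, which is the length of a read, across the junction of the first and second exon. The 45 bases of the form's own first exon are in lower case and the 30 bases of the shared second exon are in capitals. For the downstream form the bases come from chr11:81151758-81151802, for the upstream form from chr11:81967630-81967674, and for both from chr11:80971585-80971614.
Asic2 downstream form: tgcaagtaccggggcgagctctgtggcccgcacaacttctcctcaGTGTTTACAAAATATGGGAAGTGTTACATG
Asic2 upstream form: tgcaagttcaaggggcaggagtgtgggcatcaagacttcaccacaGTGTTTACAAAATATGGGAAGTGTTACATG
A read from the capitals onward fits both forms. The values are sums per gene, so the forms could not be told apart, and the *Asic2* values below are of both together.

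The bases before the starts were searched on both strands for the estrogen response element palindrome GGTCANNNTGACC, for AGGTCA, which is a single arm of it with one more base, and for the GC box GGGCGG. The AGGTCA motif can overlap the palindrome, and any of the 3 may share end bases with another. Windows of 250 bases before each start came from RefSeq (GRCm38.p6), which held 63 windows for 48 of the 64 channel genes. The palindrome was in 0 of the 63 windows, against 0.06% of all 32851 windows. The single arm was in 7 windows (11.1%, against 14.02% of all), those of *Asic1*, *Cacng8*, *Hcn2*, *Ryr2*, *Scn8a*, *Trpm3* and *Trpv6*. The GC box was in 23 windows (36.5%, against 32.74% of all). None of the motifs was in either window of *Asic2*. The sequences of *Asic2*, which differed between the treatments, and *Asic1*, which was not past the threshold, are shown side by side, with AGGTCA in capitals. The *Asic2* line is the part of the upstream window outside annotated exons, on the minus strand at chr11:81968458-81968646. The window of the downstream *Asic2* start lies wholly within an annotated exon and is not shown. The *Asic1* window is on the plus strand at chr15:99691974-99692223, within the annotated gene, and no annotated transcript of the gene starts in it. Whether exons of transcripts that start further upstream cover it was not checked.
Asic2 upstream start: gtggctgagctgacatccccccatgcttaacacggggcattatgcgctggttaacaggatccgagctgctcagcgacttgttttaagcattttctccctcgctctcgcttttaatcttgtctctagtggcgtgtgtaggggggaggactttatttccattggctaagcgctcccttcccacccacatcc
Asic1: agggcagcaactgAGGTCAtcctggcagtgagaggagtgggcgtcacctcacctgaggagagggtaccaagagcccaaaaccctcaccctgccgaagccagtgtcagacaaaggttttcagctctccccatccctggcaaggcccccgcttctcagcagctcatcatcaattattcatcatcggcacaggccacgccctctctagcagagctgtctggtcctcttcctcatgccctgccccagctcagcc
A match to these letters is a description of the window and no evidence of binding, and the absence of one says only that the letters are not in it.

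The question of the design was which transcripts of MeA *Kiss1* cells differ with E2. Of the 64 channel genes, 1 was past the threshold of an adjusted p under 0.05 (1.56%, against 0.288% of all genes tested), and it was higher with E2 (against 0.23% of all genes called higher). The p-values are from limma on the log2 CPM with adjustment over all 13886 genes, differences are E2 minus OVX, and they measure the spread between pools. Of the 64, 33 had a higher and 31 a lower mean with E2, and the median difference was 0.01 (log2), against 0.00 over all genes. This balance held genes that went both ways by level. At a mean log2 CPM of at least 6, a limit chosen after the values were seen, 20 of 26 channel genes had a lower mean with E2 (76.9%, against 55.1% of all genes at that level), with a median difference of -0.06. Below it 11 of 38 had a lower mean (28.9%, against 46.6%), with a median difference of 0.07. The lower genes at the higher level numbered 18 with quantile normalization (69.2%, against 49.5% of all genes). With 1 library left out they numbered 18 to 21 (69.2% to 80.8%, against 51.9% to 60.3% of all genes at that level). The 2 shares were nearest without E2 replicate 2, at 69.2% against 60.3%. In bulk samples, fewer cells of a type and less RNA per cell cannot be told apart.

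**Figure D1:**
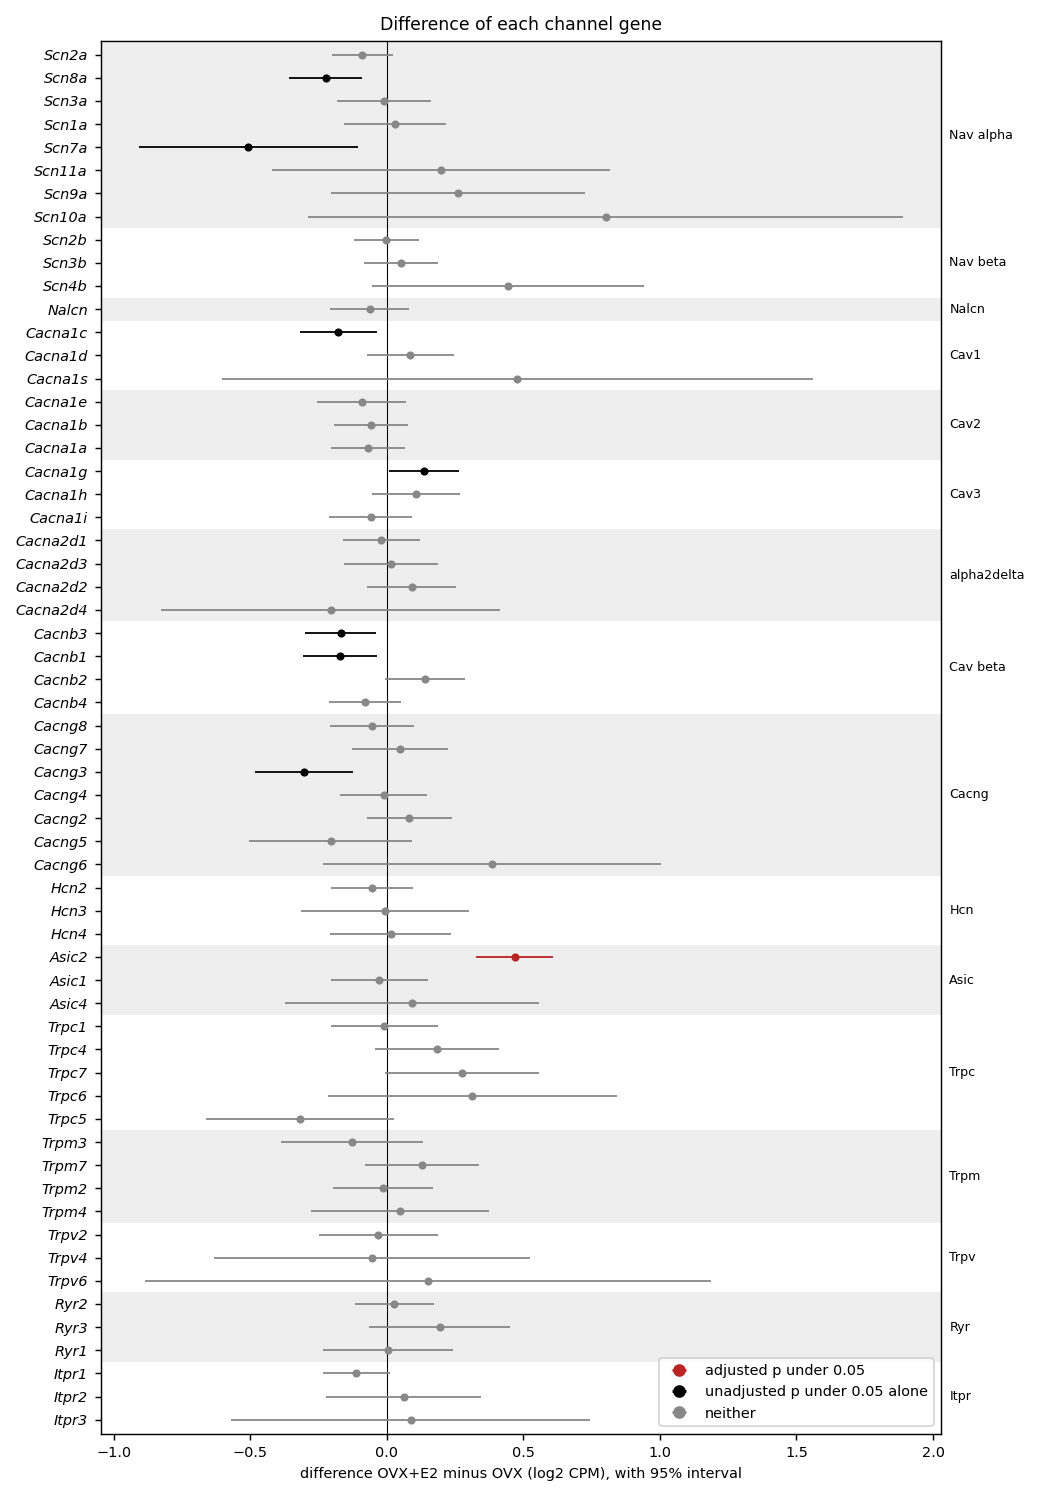
Difference between E2 and OVX libraries (log2 CPM, 3 libraries each) of 60 of the 64 channel genes, with its 95% interval from limma, grouped by subfamily. The red interval of *Asic2* lies wholly between 0.33 and 0.61, the black intervals mark 7 genes with an unadjusted p under 0.05 alone, and the widest intervals belong to genes of low level such as *Scn10a* and *Cacna1s*.

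ASICs assemble as trimers, and *Asic1* and *Asic2* encode the main subunits in the brain. *Asic2* (ENSMUSG00000020704, chromosome 11 from 80880169 to 81968457) was at log2 CPM of 6.64, 6.54 and 6.63 in the OVX libraries, and at 7.04, 7.18 and 6.99 in the E2 libraries. All 3 E2 libraries were above all 3 OVX libraries. The means were 6.60 ± 0.05 (SD, n = 3) and 7.07 ± 0.10 (SD, n = 3), a log2 difference of 0.47 (SE 0.07, 95% interval 0.33 to 0.61) or a 1.38-fold higher level with E2. The adjusted p from limma was 0.00562, the 15th smallest p of the table. It lies between 0.00797 and 0.0356 with any 1 library left out, while without a mean-variance trend in limma the adjusted p was 0.346. The study itself names *Asic2* among the genes that differed, so its choice here is not independent evidence.

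*Asic1* was at 6.33, 6.36 and 6.65 in OVX and 6.45, 6.46 and 6.35 in E2 libraries. The groups overlapped, and the difference of -0.03 (SE 0.08, adjusted p = 0.968) had a 95% interval of -0.20 to 0.15, so a rise of *Asic1* as large as that of *Asic2* lies outside it. The log2 ratio of *Asic2* to *Asic1* within a library, a comparison chosen after the values were seen, was 0.30, 0.18 and -0.02 in OVX and 0.59, 0.72 and 0.64 in E2 libraries. It was higher in all 3 E2 libraries, by 0.50, with an exact two-sided permutation p of 0.1, which is the smallest that 3 against 3 libraries can give. *Asic4*, whose product is not known to form a proton-gated channel by itself, was at 3.07, 2.98 and 3.12 in OVX and 3.70, 2.98 and 2.77 in E2 libraries. Its highest value was thus in 1 E2 library, replicate 1, and 18.1% of its exonic bases are shared with another gene model. Per kilobase of the longest transcript, *Asic2* was at 33.7 CPM, *Asic1* at 21.1 and *Asic4* at 3.29. By the mean transcript length *Asic1* was the highest instead, so the order of *Asic1* and *Asic2* depends on the length used.

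Proteins known to bind or modify ASICs gave 0 genes past the threshold among the 4 listed of 5. The smallest p was that of *Prkca*, a protein kinase C. Its log2 CPM was 7.49 ± 0.02 (SD, n = 3) without E2 and 7.72 ± 0.04 (SD, n = 3) with it, a difference of 0.23 (SE 0.05, adjusted p = 0.125), and the groups did not overlap. *Pick1*, which anchors ASICs and kinases, differed by -0.03 (SE 0.07).

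Beyond *Asic2*, 8 channel genes had an unadjusted p under 0.05 from limma and were not past the threshold. With *Asic2* these are 9 of 64 (14.06%, against 8.56% of all genes), of which 2 were higher and 7 lower with E2. The groups did not overlap for 17 of 64 (26.56%, against 13.7% of all genes), 8 above and 9 below. Without OVX replicate 2 the channel genes without overlap were 18 (28.1%), hardly more than the 26.7% of all genes. Both shares depend on level. At a mean log2 CPM of at least 6, 8 of 26 channel genes had such a p (30.8%, against 13.2% of the 3791 genes at that level) and 10 did not overlap (38.5%, against 18.0%). Below it these were 1 of 38 (2.6%, against 6.8%) and 7 of 38 (18.4%, against 12%).

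**Figure D2:**
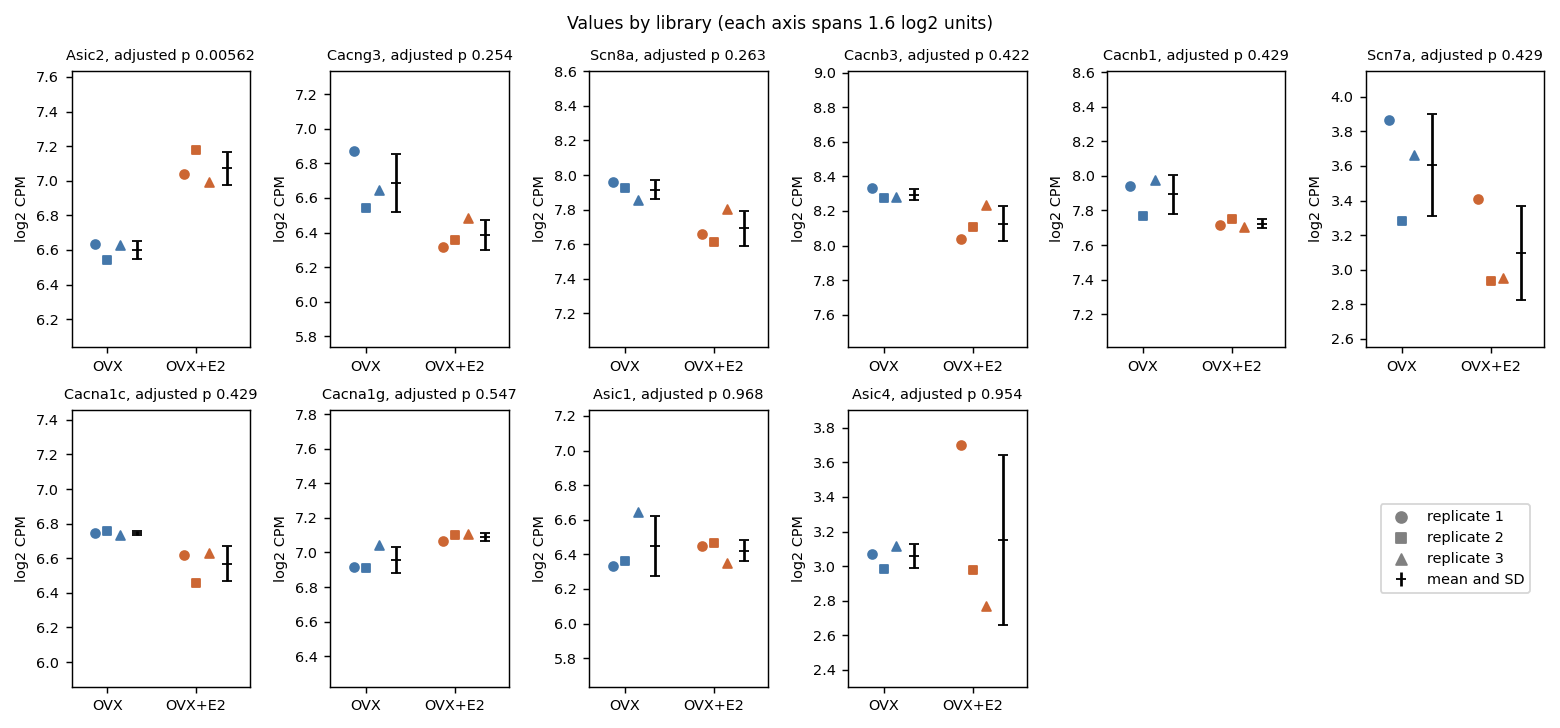
Log2 CPM in each library of 8 of the 9 channel genes with an unadjusted p under 0.05, in order of p, followed by *Asic1* and *Asic4*; symbols mark the replicate and bars the mean and SD of 3 libraries. Every axis spans the same range, *Asic2* stands apart with E2 libraries from 6.99 to 7.18 against 6.54 to 6.64, and the differences of the 7 others with such a p are smaller against their spread.

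Among the sodium channel alpha subunits, *Scn2a* and *Scn8a*, the main subunits of axons of adult neurons, held most of the level. Per kilobase *Scn2a* was at 34.8 CPM (47.2% of the 9 alpha genes) and *Scn8a* at 19.6 (26.6%). *Scn3a*, which is mainly embryonic, was at 5.13 and *Scn1a*, prominent in inhibitory interneurons, at 4.83. These neighbours did not differ beyond their spread, with library values of 4.64 to 5.53 and 4.41 to 5.21. The subunits of peripheral sensory neurons were low, with *Scn11a* at 0.53, *Scn9a* at 0.51 and *Scn10a* at 0.16 CPM per kilobase.

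Neighbouring alpha genes share sequence that a read cannot assign. Of the 75-base stretches in its transcripts, 3.85% of those of *Scn3a*, 2.80% of *Scn2a*, 2.66% of *Scn9a*, 1.88% of *Scn1a* and 0.49% of *Scn10a* also occur in another channel gene, while 58 of the 64 channel genes had none. The longest coding run that *Scn8a* shares with *Scn1a*, *Scn2a*, *Scn3a* or *Scn9a* is 55 bases, below the length of a read. Genes other than the channel genes were not searched for shared stretches.

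*Scn8a* had the smallest p of the sodium channel genes. It was at log2 CPM of 7.96, 7.93 and 7.86 in OVX and 7.66, 7.61 and 7.80 in E2 libraries. Every E2 library was below every OVX library, but the gap between the nearest pair was small. The difference was -0.22 (SE 0.06, adjusted p = 0.263 by limma), so it was not past the threshold. *Scn2a* was at 8.32, 8.35 and 8.31 in OVX and 8.22, 8.28 and 8.21 in E2 libraries, also without overlap, with a difference of -0.09 (SE 0.05, adjusted p = 0.697). *Scn7a*, which encodes a sodium-sensing channel of glia and other cells, was at 3.87, 3.28 and 3.66 against 3.41, 2.93 and 2.95. Its groups overlapped at a difference of -0.51 (SE 0.19, adjusted p = 0.429). The 6 other alpha genes had differences from -0.01 to 0.80, the largest for *Scn10a*, whose 95% interval ran from -0.29 to 1.89.

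Of the beta subunits, *Scn2b* was at 60.0 CPM per kilobase and *Scn3b* at 50.2, both above every alpha subunit by this length, and *Scn4b* at 1.55. By the mean transcript length *Scn2b* (64.9) was below *Scn2a* (88.8) and *Scn8a* (67.0), while *Scn3b* (92.8) was above both. The order of alpha and beta genes thus depends on the length used. *Scn2b* differed by 0.00 (95% interval -0.12 to 0.12) and *Scn3b* by 0.05 (-0.08 to 0.19). *Scn4b* was at 2.58, 2.72 and 2.72 in OVX and 2.84, 2.79 and 3.72 in E2 libraries, so its difference of 0.44 (SE 0.23, adjusted p = 0.641) rested mainly on E2 replicate 3.

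**Figure D3:**
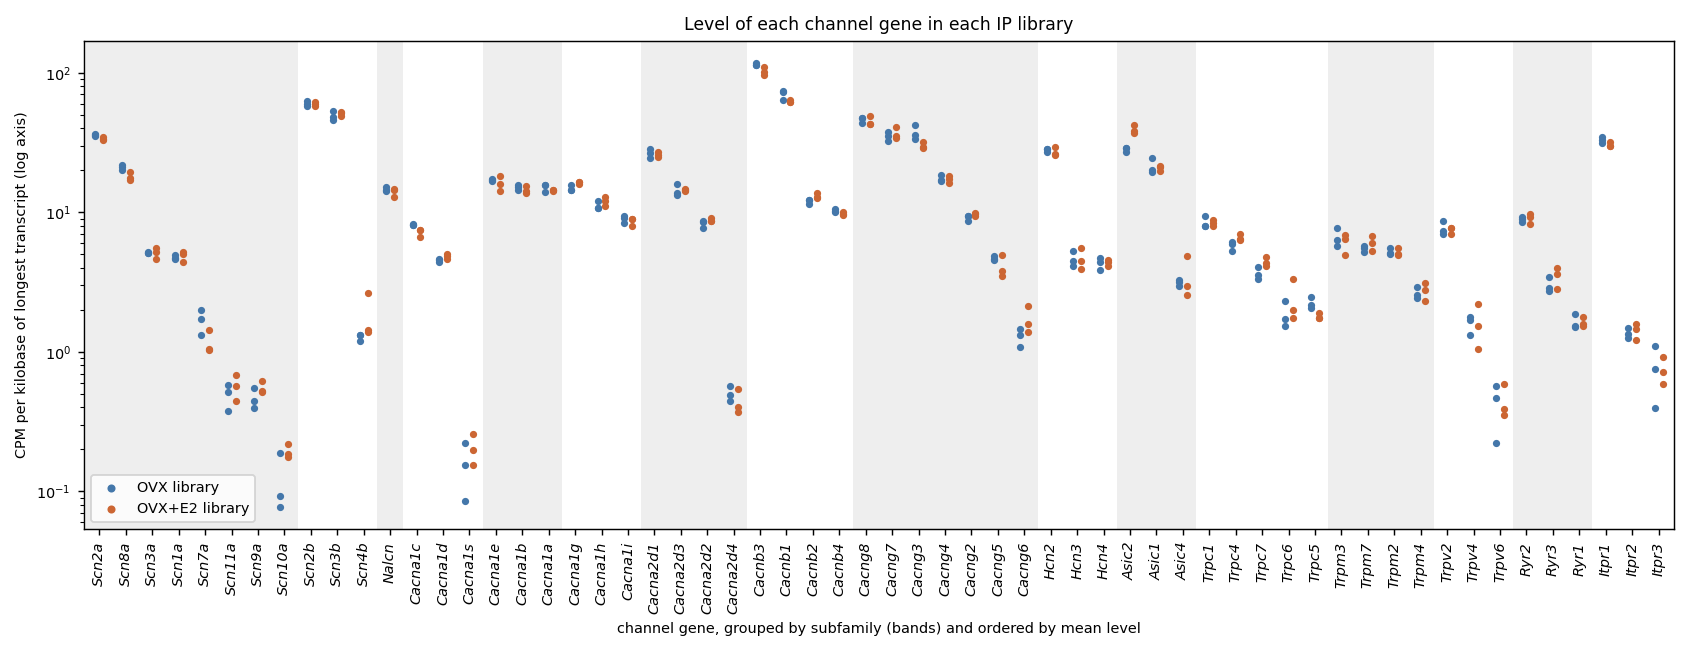
Level of 60 of the 64 channel genes in each of the 6 IP libraries, as CPM per kilobase of the longest transcript on a log axis, with subfamilies in alternating bands. Levels span from 0.08 (*Scn10a*) to 118 (*Cacnb3*) CPM per kilobase, and within a gene the 3 OVX and 3 E2 libraries lie close together except at low levels.

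Of 8 partners of sodium channels, such as ankyrin, spectrin and the intracellular fibroblast growth factors that tune inactivation, 0 were past the threshold, with 3 higher and 5 lower. The smallest p was that of *Fgf12*, at 6.96 ± 0.07 (SD, n = 3) without E2 and 7.22 ± 0.05 (SD, n = 3) with it (difference 0.25, SE 0.06, adjusted p = 0.14), without overlap. *Fgf14*, of the same gene group, differed by -0.21 (SE 0.10, adjusted p = 0.600). The sodium leak channel *Nalcn* was at 14.3 CPM per kilobase and at log2 CPM of 6.66, 6.75 and 6.69 in OVX and 6.70, 6.52 and 6.69 in E2 libraries. The groups overlapped (difference -0.06, SE 0.07, adjusted p = 0.870). Its partners *Unc79*, *Unc80* and *Fam155a* were all listed, with differences from -0.11 to 0.08 and 0 past the threshold.

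The calcium channel alpha1 genes of the Cav2 group, which drive transmitter release, were at even levels. Per kilobase *Cacna1e* was at 16.7 CPM (library range 14.2 to 18.2), *Cacna1b* at 14.8 (13.9 to 15.8) and *Cacna1a* at 14.7 (14.02 to 15.7). These ranges overlap, and by the mean transcript length *Cacna1a* was the highest. The low-voltage-activated Cav3 genes, which support burst firing, were at similar or lower levels, with *Cacna1g* at 15.5, *Cacna1h* at 11.6 and *Cacna1i* at 8.80. By the mean transcript length all 3 (21.7, 30.7 and 28.0) were below the Cav2 genes (33.3 to 41.7), and *Cacna1h* was the highest of them. In the Cav1 group of L-type channels, *Cacna1c* was at 7.69, *Cacna1d* at 4.68 and *Cacna1s*, the skeletal muscle form, at 0.18 CPM per kilobase. Of the exonic bases of *Cacna1s*, 20.0% are shared with another gene model on the other strand.

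*Cacna1c* was at log2 CPM of 6.74, 6.76 and 6.74 in OVX and 6.62, 6.45 and 6.63 in E2 libraries. The OVX libraries were nearly equal and all E2 libraries lay below them, with a difference of -0.18 (SE 0.07, adjusted p = 0.429). *Cacna1d* lay the other way, at 5.47, 5.42 and 5.47 in OVX and 5.55, 5.47 and 5.59 in E2 libraries (difference 0.09, SE 0.07, adjusted p = 0.816). *Cacna1g* was at 6.91, 6.91 and 7.04 in OVX and 7.07, 7.10 and 7.11 in E2 libraries. It was the other channel gene besides *Asic2* with an unadjusted p under 0.05 and a higher level with E2 (difference 0.14, SE 0.06, adjusted p = 0.547 by limma). The 3 Cav2 genes had differences from -0.09 to -0.06, with intervals that all contain 0.

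The auxiliary subunits of calcium channels were led by the beta genes, which bring alpha1 subunits to the membrane. *Cacnb3* was at 109 CPM per kilobase and *Cacnb1* at 66.2, together far above *Cacnb2* at 12.5 and *Cacnb4* at 10.1. The groups did not overlap in any of the 4, as in 13.7% of all genes, with 3 lower and 1 higher with E2, and 0 were past the threshold. *Cacnb3* was at 8.33, 8.27 and 8.28 in OVX and 8.04, 8.11 and 8.24 in E2 libraries (difference -0.17, SE 0.06, adjusted p = 0.422). *Cacnb1* was at 7.94, 7.77 and 7.97 in OVX and 7.72, 7.75 and 7.70 in E2 libraries (difference -0.17, SE 0.06, adjusted p = 0.429). In both, the lowest OVX and the highest E2 library lay close together. *Cacnb2* was the higher one, at 5.84, 5.94 and 5.94 in OVX and 6.03, 6.11 and 6.0 in E2 libraries (difference 0.14, SE 0.07, adjusted p = 0.604). Of the exonic bases, 16.0% of *Cacnb4* and 7.3% of *Cacnb2* are shared with another gene model, and the libraries did not keep strand.

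Of the alpha2delta genes, whose products aid channel trafficking and bind gabapentinoid drugs, *Cacna2d1* was at 26.3 CPM per kilobase (52.8% of the 4), *Cacna2d3* at 14.4, *Cacna2d2* at 8.56 and *Cacna2d4* at 0.47. Their differences ran from -0.21 for *Cacna2d4* to 0.09 for *Cacna2d2*, and none had an unadjusted p under 0.05. The *Cacng* genes mostly encode TARPs, which are auxiliary subunits of AMPA receptors rather than of calcium channels. *Cacng8* was at 45.6 CPM per kilobase, *Cacng7* at 36.0, *Cacng3* at 33.7, *Cacng4* at 17.4, *Cacng2* at 9.42, *Cacng5* at 4.38 and *Cacng6* at 1.5. The library ranges of *Cacng7* (32.7 to 40.7) and *Cacng3* (28.7 to 42.2) overlap.

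*Cacng3* had the second smallest p of the 64 channel genes. It was at log2 CPM of 6.87, 6.54 and 6.65 in OVX and 6.32, 6.35 and 6.48 in E2 libraries. All E2 libraries were lower, with a difference of -0.30 (SE 0.08, 95% interval -0.48 to -0.12) or 0.811 of the OVX level, and an adjusted p of 0.254 by limma. *Cacng8*, *Cacng7*, *Cacng4* and *Cacng2* had differences from -0.05 to 0.08, with groups that overlapped.

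Channel genes with an unadjusted p under 0.05 that were lower with E2 included the 6 genes *Cacng3*, *Scn8a*, *Cacnb3*, *Cacnb1*, *Scn7a* and *Cacna1c*. Their values are set here beside those of genes listed as markers of excitatory neurons of other forebrain areas. All 8 such markers had lower means with E2, 6 with an unadjusted p under 0.05 and 0 past the threshold, with a median difference of -0.40. Their summed level on the log2 scale was 9.88 to 10.25 in OVX and 9.50 to 9.87 in E2 libraries, and none of the markers was at 0 in any library. *Slc17a7*, a vesicular glutamate transporter and the most abundant of them, was at 9.91, 9.64 and 9.50 in OVX and 9.22, 9.07 and 9.50 in E2 libraries. The study itself reports this transporter among the transcripts of MeA *Kiss1* cells, so its share from other areas cannot be told apart. Within OVX the marker sum was highest in replicate 1, as were 4 of these 6 channel genes, and within E2 it was highest in replicate 3, as were 4 of the 6. *Cacnb1* matched in neither group, with its highest values in OVX replicate 3 and E2 replicate 2. *Cacna1c* was highest in OVX replicate 2, and *Scn7a* in E2 replicate 1. Orders over 3 libraries can match by chance. The part of these markers in the lower channel genes was not tested. General neuron markers had a summed log2 level of 12.31 to 12.35 in OVX and 12.32 to 12.41 in E2 libraries. The 3 markers of GABA neurons had higher means with E2, the largest for *Gad2* (difference 0.31, SE 0.09, adjusted p = 0.251), with sums of 8.48 to 8.76 and 8.73 to 8.99, and their part in the *Asic2* difference was not tested. All 5 astrocyte markers had higher means with E2 and 0 were past the threshold (sums of 8.99 to 9.41 and 9.23 to 9.63). Of 3 erythroid markers, 2 were past the threshold and higher with E2, with sums of 6.78 to 7.69 and 7.98 to 8.63. The pituitary hormone genes *Gh* and *Prl* swung between libraries, from a summed log2 level of -1.11 in E2 replicate 3 to 10.002 in OVX replicate 2. The sum was 2.38 and 6.33 in OVX replicates 1 and 3, and 6.93 and 7.83 in E2 replicates 1 and 2. The part of pituitary RNA in the *Asic2* difference was not tested.

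**Figure D4:**
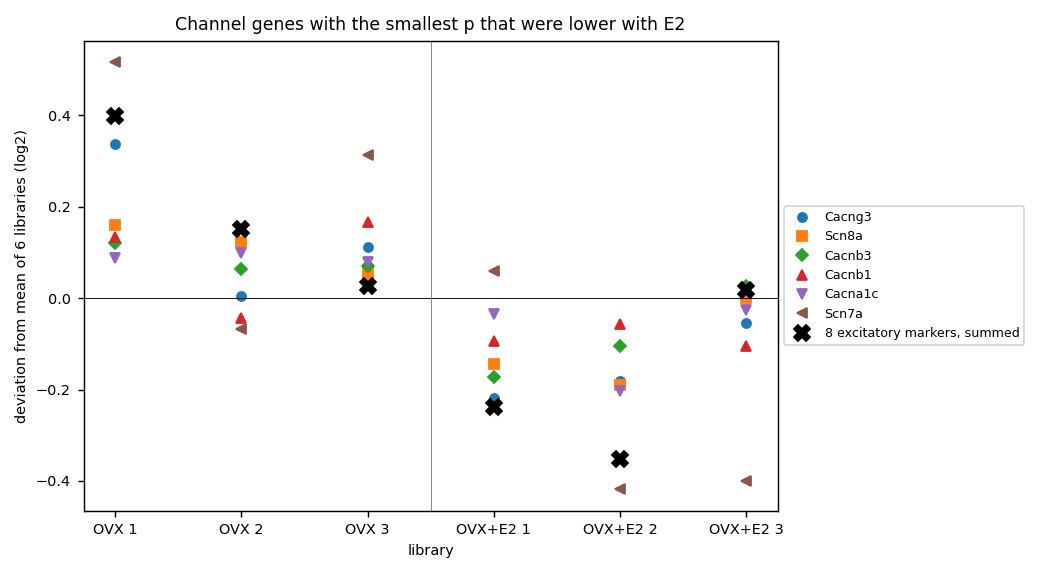
Deviation from the mean of the 6 libraries (log2 CPM) of 6 channel genes with an unadjusted p under 0.05 that were lower with E2, and of the summed level of the 8 markers of forebrain excitatory neurons (black crosses). The marker sum is highest in OVX replicate 1 (10.25) and lowest in E2 replicate 2 (9.50), and E2 replicate 3 (9.87) lies next to OVX replicate 3 (9.88).

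HCN channels were led by *Hcn2* at 27.5 CPM per kilobase, 67.6% of the 4 genes. *Hcn3* at 4.64 and *Hcn4* at 4.35 did not differ beyond their spread over libraries by this length, since their ranges (3.92 to 5.55 and 3.85 to 4.72) overlap. By the mean transcript length *Hcn3* was at 12.2, above *Hcn4* at 4.35. Of the exonic bases of *Hcn3*, 17.1% are shared with *Pklr*, a gene on the other strand. The 4 genes showed the smallest differences of any subfamily with more than 1 gene, from -0.05 to 0.02. *Hcn2* was at log2 CPM of 6.50, 6.51 and 6.45 in OVX and 6.35, 6.38 and 6.56 in E2 libraries, with a 95% interval of -0.20 to 0.10. That of *Hcn4* was -0.21 to 0.24. Among 5 partners of HCN channels, 0 were past the threshold, and the smallest p belonged to *Pex5l*, the brain trafficking subunit (difference -0.07, SE 0.07, adjusted p = 0.858).

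The TRP genes were at modest levels. Of the receptor-operated TRPC channels, *Trpc1* was at 8.45 CPM per kilobase, *Trpc4* at 6.18, *Trpc7* at 4.04, *Trpc6* at 2.11 and *Trpc5* at 2.02. *Trpc7* was at log2 CPM of 3.55, 3.84 and 3.65 in OVX and 4.08, 3.93 and 3.86 in E2 libraries, so the E2 libraries were all higher but by little at the nearest pair (difference 0.27, SE 0.13, adjusted p = 0.600). *Trpc4* was also higher in all 3 E2 libraries (difference 0.19, SE 0.11, adjusted p = 0.692). *Trpc5* lay the other way, at 3.18, 3.37 and 3.10 in OVX and 2.97, 2.86 and 2.86 in E2 libraries (difference -0.32, SE 0.16, adjusted p = 0.616). *Trpc6* had its highest value in E2 replicate 1, at 3.44, against 2.33 to 2.91 in the other libraries. In E2 replicate 1 the summed astrocyte markers (9.63) and oligodendrocyte markers (11.12) were also the highest of the 6 libraries, and their part in this value was not tested.

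Of the TRPM channels, *Trpm3*, a heat- and steroid-sensitive channel, was at 6.34 CPM per kilobase, *Trpm7*, a channel with its own kinase, at 5.77, *Trpm2* at 5.22 and *Trpm4* at 2.68. *Trpm3* ranged from 6.15 to 6.57 in OVX and from 5.92 to 6.40 in E2 libraries. *Trpv2* held 78.9% of the level of the TRPV genes at 7.59, with *Trpv4* at 1.6 and *Trpv6* at 0.43. None of the 7 TRPM and TRPV genes had an unadjusted p under 0.05, and their differences ran from -0.13 to 0.15. In a list of 16 related channels and channel-associated proteins outside the symbol rule, 12 were listed and 0 were past the threshold. The smallest p there was that of *Rimbp2*, which ties calcium channels to release sites (difference -0.17, SE 0.06, adjusted p = 0.392).

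Of the store release channels, *Itpr1*, the main IP3 receptor of neurons, was at 31.8 CPM per kilobase and held 93.7% of its family, against 1.39 for *Itpr2* and 0.75 for *Itpr3*. *Itpr1* was at log2 CPM of 8.34, 8.42 and 8.28 in OVX and 8.22, 8.19 and 8.29 in E2 libraries. The groups overlapped at 1 pair of libraries, with a difference of -0.11 (SE 0.06, adjusted p = 0.620). *Itpr3*, common in non-neuronal cells, varied most within a group, at 1.84, 3.30 and 2.75 in OVX libraries. Its highest value was in OVX replicate 2, where the endothelial and mural markers were also the highest (7.92, against 6.97 to 7.60 elsewhere), and their part in it was not tested. Of the ryanodine receptors *Ryr2*, the cardiac and brain form, was at 9.02 CPM per kilobase, *Ryr3* at 3.24 and *Ryr1* at 1.63. Their differences were 0.03, 0.19 and 0.01, none with an unadjusted p under 0.05.

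Genes of the wider calcium handling machinery also gave 0 past the threshold. Of 12 listed calcium pumps and exchangers, 2 had higher and 10 lower means with E2, with a median difference of -0.05. *Slc24a4*, a potassium-dependent sodium-calcium exchanger, had the smallest p there, at 4.77 ± 0.16 (SD, n = 3) without E2 and 4.42 ± 0.14 (SD, n = 3) with it (difference -0.35, SE 0.11, adjusted p = 0.355). Of 12 partners of the store channels, such as calmodulins and junctophilins, 3 were higher and 9 lower. *Fkbp1b*, which stabilizes ryanodine receptors, had the smallest p among them (difference -0.41, SE 0.14, adjusted p = 0.401). The 5 genes of store-operated calcium entry, the *Stim* and *Orai* genes, had differences from -0.10 to 0.04, and *Orai2* had the smallest p (adjusted p = 0.730).

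At the low end, *Scn10a*, *Cacna1s* and *Trpv6* were near a log2 CPM of 0. Counts rebuilt from the values went down to 17.1 for *Scn10a*, 14.4 for *Cacna1s* and 18.0 for *Trpv6* in 1 library, against at least 2776 for *Asic2*. The 95% intervals of these 3 genes span from -0.88 to 1.89, so differences of the size seen in *Asic2* were not detectable in them at this depth. Over the 64 channel genes the median SE was 0.084, against 0.107 over all genes.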

How the data were processed

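RNA-seq was analysed for 6 MeA IP libraries, 3 from OVX and 3 from E2-treated females, grouped by the treatment in the labels. The authors' deposited log2 CPM values were made by the authors from unstranded, polyA-selected libraries read as 75-base single ends. Per the labels and the study's methods, reads were checked with FastQC 0.11.8, trimmed with Trimmomatic 0.38, aligned with STAR 2.6.0a to GRCm38 and quantified with RSEM, genes were limited to protein-coding ones above a minimum mean CPM, and values were scaled by TMM and passed through voom. Genes filtered out in this way cannot be assessed. A deposited table of the authors' own comparison (fold changes, test statistics, p-values) was not used.

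Channel genes were matched by symbol. The members and the lists of associated genes and markers were chosen with earlier results of these data known. E2 and OVX libraries were compared with limma 3.58.1 in R 4.3.3 on log2 CPM, with a mean-variance trend, treatment as the only term, two-sided p-values and Benjamini-Hochberg adjustment over 13886 genes, with 0.05 as the threshold. The procedure was tested on simulated data. Values per kilobase used the longest GENCODE transcript (GRCm38). Genes named are those past the threshold, the 12 with the smallest p, the highest and lowest per kilobase of each subfamily, those of very low level, and the gene with the smallest p of each associated list. Other channel genes are given to account for the list, and 4 channel genes, some of which this rule names, are not reported here by name, though all counts include them. Scaled library sizes and counts were rebuilt from each library's lowest value, assumed to stand for 0 reads and the offset of 0.5 used by voom. Depth enters precision only through the spread between libraries, that of the gene itself and, by the trend, that of genes of similar level. With 3 libraries per group, no exact permutation p can be below 0.1. Same-numbered libraries did not deviate together (correlations of -0.02, -0.12 and -0.08), so the numbers were not taken as pairs. The alternatives tried were other scalings, offsets, filters, weights, priors, a replicate block and leaving out each library.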

Additional observations from a re-analysis of the deposited data

How the results depend on the processing

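The *Asic2* difference was the call that the channel genes rest on. Without a mean-variance trend in limma it was 0.469 with an adjusted p of 0.346, and 0 channel genes were past the threshold, as were 0 of all 13886 genes (1017 had an unadjusted p under 0.05, against 1188 with the trend, and 6 channel genes). With a replicate block the *Asic2* difference was 0.469 with an adjusted p of 0.0256, and 1 channel gene and 35 genes in all were past the threshold, against 40 without the block. With 1 library left out at a time the difference ran from 0.414 to 0.507, and *Asic2* was the 1 channel gene past the threshold each time, while the genes called in all ran from 20 (without E2 replicate 2) to 66 (without E2 replicate 3). Under the other scalings, offsets, filters and weights it ran from 0.46 to 0.473, with adjusted p from 0.0038 to 0.00862, and with robust empirical Bayes the adjusted p was 0.0015.

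The channel genes whose groups do not overlap numbered 14 with median centring (21.9%, against 13.6% of all genes). With quantile normalization they also numbered 14 (21.9%, against 13.3% of all genes). Without these changes they numbered 17 (26.56%, against 13.7% of all genes). With 1 library left out they numbered 18 to 25 (28.1% to 39.1%, against 21.2% to 26.7% of all genes). Without OVX replicate 2 they were 28.1% against 26.7%, so the excess over all genes then nearly vanished. None of the 12 channel genes with the smallest p changed direction under any alternative run. They were chosen by p in these same values, and in most of them the groups do not overlap. Leaving out a library cannot reverse such a gene, so the constant direction is no independent check. The gene with the highest level per kilobase changed in 3 of 15 subfamilies with the mean transcript length (*Asic1*, *Cacna1a* and *Cacna1h* became the highest), in 2 without division by length (*Cacng3* in 1 of them), and in 0 with a library left out. Genes of low level have wide intervals at this depth.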
